A study of Mus musculus with 18 samples.

Results

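The libraries described here are the 6 cardiac fibroblast libraries of the series, out of 18 libraries in all, chosen by their title and with 1 library per mouse. The groups are 3 mice carrying the Bag3-P209L transgene (Tg+) and 3 Bag3-WT mice (WT), every one of them 16 months old. The other 12 libraries are of cardiomyocytes from the same mice. The sources used here do not give the promoter that drives the transgene, the cells that express it, its species of origin or the strain background. The comparison asks what the transgene is accompanied by in the non-muscle cells of the aged heart, and all genes were tested.

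Cardiac fibroblasts build and remodel the collagen matrix of the heart, and on injury they can become contractile, matrix-secreting myofibroblasts. BAG3 is a co-chaperone that couples HSP70 to small heat shock proteins and to the ubiquitin ligase encoded by Stub1, and it feeds damaged filament proteins into autophagy. It is best known from striated muscle, where the P209L substitution causes a severe myopathy, but it is made in many other cell types, fibroblasts among them.

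The libraries were not alike. Total estimated counts, in units of 1e6, ran from 17.3 to 23.3 in 5 libraries and reached 61.3 in WT mouse 1, in which the 13 genes of the mitochondrial genome held 74.2% of the counts. In the other 5 libraries they held between 16.7% (Tg+ mouse 2) and 39.2% (Tg+ mouse 3). Counts of nuclear genes were more even, from 11.3 to 15.8 in the same unit. On log2 CPM (counts scaled to a common library size), libraries of the same genotype correlated at 0.937 to 0.980 (6 pairs, median 0.954) and libraries of different genotype at 0.908 to 0.981 (9 pairs, median 0.961). Tg+ mouse 3 and WT mouse 1 had the lowest mean correlation with the others (0.934 and 0.945, against 0.963 to 0.965), so results that rest on either are also given without it. The letters in the mouse codes are uneven over the genotypes: Tg+ mice 1 and 3 and WT mouse 1 carry F, and the other mice M. Ddx3y, a Y-linked gene, had 0 counts in the 3 libraries coded F and 1300, 1258 and 908 counts in those coded M. By this gene the letters follow the sex of the mice, so sex was uneven over the genotypes.

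The label was checked against 4 fibroblast markers. As nuclear-only CPM per exon kilobase, Dcn, which encodes the matrix proteoglycan decorin, had a median of 700 over the 6 libraries (rank 53 of 12871 genes). The type I collagen gene Col1a1 followed at 109 (rank 551), the fibroblast transcription factor gene Tcf21 at 31.2 (rank 1981) and the PDGF receptor gene Pdgfra at 13.8 (rank 4043). Some macrophage genes stood above most of these on the same per-length scale and others below: the lysozyme gene Lyz2 had a median of 2298 (rank 11), the complement gene C1qa 1396 (rank 22) and Adgre1, which encodes F4/80, 143 (rank 413), while Ccr2 had 1.98 (rank 9475) and Marco 0.698 (rank 11402). The endothelial gene Pecam1 had 97.4 (rank 616) and the cardiomyocyte myosin gene Myh6 55.0 (rank 1130). Listed cardiomyocyte genes ran from Mb at 175 (rank 331) to Ttn at 0.129 (rank 12802). Listed red cell genes ran from Hba-a2 at 6524 (rank 2) to Slc4a1 at 0.31 (rank 12372). The preparations thus carried fibroblast transcripts in every library, together with those of macrophages, endothelial cells, red cells and cardiomyocytes. In such bulk libraries, fewer cells of a type and less RNA per cell cannot be told apart.

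Fibroblast markers were lowest in WT mouse 1. On the TMM-scaled CPM used from here on, Dcn was at 640, 1174 and 1097 in the Tg+ mice and at 300, 1075 and 721 in the WT mice. Tcf21 was at 31.5, 67.9 and 39.7 against 9.35, 69.8 and 45.1, Pdgfra at 67.5, 90.8 and 91.3 against 20.5, 87.7 and 70.8, and Col1a1 at 265, 390 and 458 against 179, 507 and 414. Both genotypes overlapped for all 4, and WT mouse 1 had the lowest value of each. The log2 fold changes (Tg+ against WT) were 0.47 for Dcn (SE 0.47), 0.48 for Pdgfra (SE 0.47), 0.16 for Tcf21 (SE 0.63) and 0.02 for Col1a1 (SE 0.40), with edgeR adjusted p of 0.822 to 0.995.

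No gene passed the test between the genotypes. Of 19094 genes in the table, 13571 had enough counts to be tested, and edgeR's quasi-likelihood test called 0 of them at a Benjamini-Hochberg adjusted p under 0.05 (0%). Unadjusted p was under 0.05 for 690 genes, 324 with the higher level in Tg+ (2.39% of the genes tested) and 366 with the lower (2.7%). The lowest adjusted p was 0.768. Among all genes tested, 748 had every Tg+ library above every WT library (5.51%) and 1029 every Tg+ library below (7.58%), and 51.3% had a log2 fold change above 0, with a median of 0.01. The standard error of the log2 fold change had a median of 0.25, and the common biological coefficient of variation was 0.284. Limma voom called 0 genes (747 at unadjusted p under 0.05), and DESeq2, run as an alternative on 18745 genes, called 5 (0.0267%; 854 at unadjusted p under 0.05). With the 13 mitochondrial genes taken out of table and library sizes, edgeR again called 0 of 13858 genes (699 at unadjusted p under 0.05, lowest adjusted p 0.782), and log2 fold changes of single genes moved by a median of 0.0088 and at most by 0.0203. Scaling by library size alone, without TMM, moved the median of all genes from 0.01 to 0.36, so list medians are read against that of all genes. On that scale the medians of the cardiomyocyte, neutrophil and mast cell, B cell, red cell, heat shock, autophagy and inflammasome lists turned above 0. So did those of the interferon, myofibroblast, cell cycle, proteasome, fatty acid oxidation and nuclear oxidative phosphorylation lists, and of the oxidative stress defence, glycolysis and p53 lists. All of these medians stayed below the 0.36 of all genes. The Schwann cell list (2 tested genes) turned as well, to 0.363 beside 0.356 for all genes. The medians of the macrophage (-0.33), class II (-0.10), T and NK (-0.49), mesothelial (-0.93), mitochondrially encoded (-0.51) and sex-linked (-0.0040) lists stayed below 0.

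**Figure D1:**
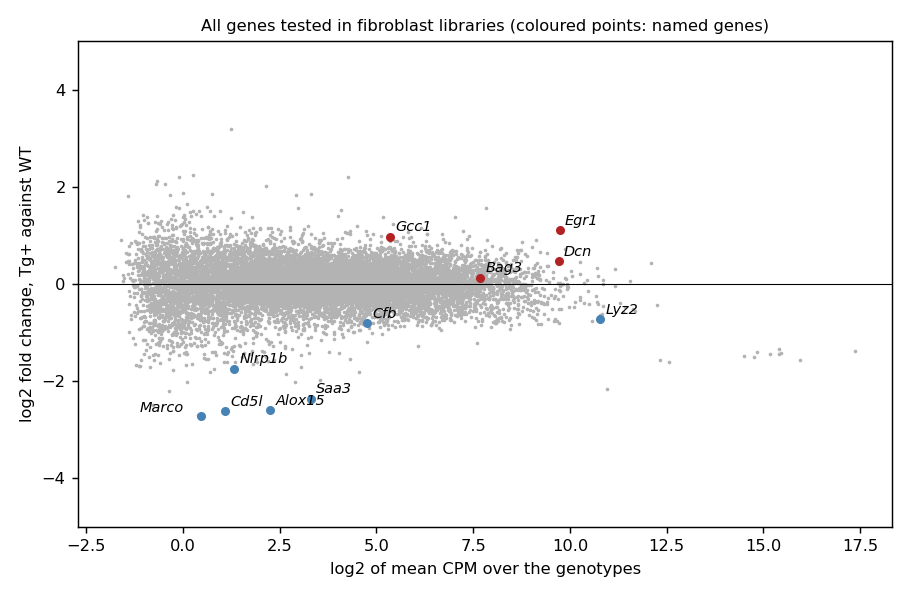
Log2 fold change of each gene tested (Tg+ against WT fibroblast libraries, 3 mice each) against the log2 of its mean CPM, 1 point a gene, with named genes coloured red where the fold change is above 0 and blue where it is below. Saa3, Marco, Cd5l and Alox15 lie lowest among the named genes, between -2.36 and -2.71, Bag3 lies at 0.13, and 1 gene (Nanp, 6.92) falls outside the plotted range.

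Bag3 (chr7:128523616-128546981, plus strand, GRCm38) was read in every fibroblast library. Its levels were 216, 303 and 124 CPM in Tg+ mice 1 to 3 and 134, 246 and 205 CPM in WT mice 1 to 3. The genotypes overlapped fully: Tg+ mouse 3 had the lowest level of all and Tg+ mouse 2 the highest. The log2 fold change was 0.13 (SE 0.36, 95% interval -0.71 to 0.98, edgeR adjusted p = 0.939), and it became -0.20 without Tg+ mouse 2 and -0.06 without WT mouse 1. Per exon kilobase, Bag3 had a median of 142 nuclear-only CPM (rank 418), above Col1a1 and close to Adgre1. The sources used here do not say whether transgene reads entered the Bag3 count, so this value does not check the genotype labels.

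Saa3, which encodes an acute-phase serum amyloid A protein made by macrophages and fibroblasts in inflamed tissue, had the lowest p of all genes and stood lower in every Tg+ mouse. It lies at chr7:46711998-46715700 on the minus strand. The 250 bases before its RefSeq start site (chr7:46715677-46715926, minus strand, RefSeq on GRCm38.p6) are shown because Saa3 has the lowest p in edgeR and DESeq2 alike. Capitals mark the 1 match to TTGCNNAA (either strand), letters bound by C/EBP factors, which begins 99 bases before the start.
Saa3 promoter: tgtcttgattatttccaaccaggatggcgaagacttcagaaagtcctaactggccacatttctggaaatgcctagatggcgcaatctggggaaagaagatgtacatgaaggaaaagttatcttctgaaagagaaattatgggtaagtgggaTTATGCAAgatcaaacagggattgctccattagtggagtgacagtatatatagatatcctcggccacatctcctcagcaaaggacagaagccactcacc
The same letters occurred in 7.61% of the 12956 promoter windows of tested genes. This is a letter match and not a measured site.

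Saa3 was at 4.26, 3.03 and 2.28 CPM in the Tg+ mice and at 19.2, 11.8 and 18.4 CPM in the WT mice. The highest Tg+ library was well under the lowest WT library. This is a 5.14-fold lower level in Tg+ (log2 fold change -2.36, SE 0.30, 95% interval -3.06 to -1.67), with an unadjusted p of 6.4e-05 that did not pass the adjustment over all genes (edgeR adjusted p = 0.768). DESeq2 called it (log2 fold change -2.35, adjusted p = 6.7e-08).

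The other 4 genes that DESeq2 called had few counts. Marco, a scavenger receptor gene of resident macrophages, was at 0.363 ± 0.105 CPM in Tg+ (SD, n = 3) and at 2.42 ± 1.07 CPM in WT (SD, n = 3), from 11, 10 and 5 counts in the Tg+ libraries and 84, 76 and 23 in the WT libraries, and the groups did not overlap (log2 fold change -2.71, DESeq2 adjusted p = 0.017). Cd5l, which encodes a secreted macrophage protein that binds apoptotic debris and lipids, was at 0.980, 0.476 and 0.291 CPM against 5.10, 3.47 and 2.41 CPM (-2.61, DESeq2 adjusted p = 0.010). Nlrp1b, which encodes an inflammasome sensor, was at 1.06, 1.38 and 1.02 CPM against 4.03, 2.73 and 4.88 CPM (-1.73, DESeq2 adjusted p = 0.030). All 3 thus fell in that test, and none passed in edgeR (adjusted p = 0.768 each). Nlrp1b has close paralogs beside it on chromosome 11, so its estimated counts are uncertain.

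Nanp, which encodes a phosphatase of sialic acid synthesis, was the 1 gene that DESeq2 called higher in Tg+ (adjusted p = 0.030). It had 15, 14 and 15 rounded counts in the Tg+ libraries and 0 in each WT library, which is at least 4.97-fold higher when 3 counts are set as the floor in each WT library. In the cardiomyocyte libraries of the same mice, summed per mouse, Nanp had 46, 0 and 0 counts in Tg+ and 0, 22 and 0 in WT, so a count of 0 did not follow the genotype there.

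The 10 genes of lowest p in each direction were named, among those without overlap and averaging 5 CPM or more in the higher genotype. None of these 20 passed (edgeR adjusted p = 0.768 for each), and they were picked for not overlapping, so their order of values is a description. Besides Saa3, the lower set held 4 genes best known from blood cells. Cd300d, a myeloid receptor gene of the immunoglobulin family, was at 9.08, 9.00 and 7.51 CPM in Tg+ and at 16.2, 15.2 and 15.3 CPM in WT (log2 fold change -0.87, SE 0.16). Slamf9, a receptor gene of macrophages and dendritic cells, was at 19.2, 19.0 and 14.1 against 24.9, 32.4 and 33.2 CPM (-0.79, SE 0.19). Cd52, which encodes a small glycoprotein on leukocytes, was at 20.8, 22.7 and 20.3 against 32.5, 34.0 and 29.0 CPM (-0.58, SE 0.14). Rgs10, a regulator of G protein signalling that is abundant in myeloid cells, was at 24.8, 29.1 and 26.7 against 42.0, 38.4 and 44.2 CPM (-0.63, SE 0.15). The groups did not overlap for any of the 4, as the rule required.

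The remaining lower genes were of mixed kind. Cfb, which encodes complement factor B of the alternative pathway, was at 18.8, 20.8 and 19.4 CPM in Tg+ and at 30.0, 43.5 and 29.9 CPM in WT (log2 fold change -0.81, SE 0.19). S100a4, a calcium-binding protein gene of fibroblasts and leukocytes, was at 15.8, 20.8 and 19.3 against 30.2, 29.3 and 26.6 CPM (-0.62, SE 0.16). The endoplasmic reticulum gene Reep4 (-0.91), the linker histone gene H1f0 (-0.61) and the clone-named gene AC161409.1 (-1.12) completed the set. Alox15, a lipoxygenase gene of resident macrophages and eosinophils, was just outside the rule and is named after its values were seen: it was at 2.60, 1.12 and 0.291 CPM in Tg+ and at 12.7, 7.30 and 4.83 CPM in WT (-2.60, SE 0.67, edgeR adjusted p = 0.768).

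In the higher set Egr1, an immediate early transcription factor gene, was by far the most abundant. It was at 1304, 789 and 1393 CPM in Tg+ and at 459, 579 and 581 CPM in WT, a log2 fold change of 1.11 (SE 0.29, edgeR adjusted p = 0.768). Synm, which encodes the intermediate filament protein synemin, was at 20.4, 17.8 and 20.6 against 11.9, 12.8 and 14.1 CPM (0.60, SE 0.15). Gcc1, a golgin gene, was at 49.4, 36.6 and 75.6 against 24.1, 31.0 and 27.1 CPM (0.97, SE 0.27). Tg+ mouse 3 was the highest library for Egr1, Synm and Gcc1, and Tg+ mouse 2 the lowest Tg+ library for all 3. A pair of the genes is known from endothelium: Clec14a was at 19.7, 13.4 and 18.2 against 11.1, 10.0 and 10.7 CPM (0.69, SE 0.19), and the ephrin gene Efnb2 at 74.3, 69.0 and 60.7 against 36.8, 44.7 and 49.9 CPM (0.63, SE 0.17). The other 5, Ahdc1, Prickle1, Rnf144a, Zfp532 and Fmo2, had log2 fold changes of 0.57 to 0.89.

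**Figure D2:**
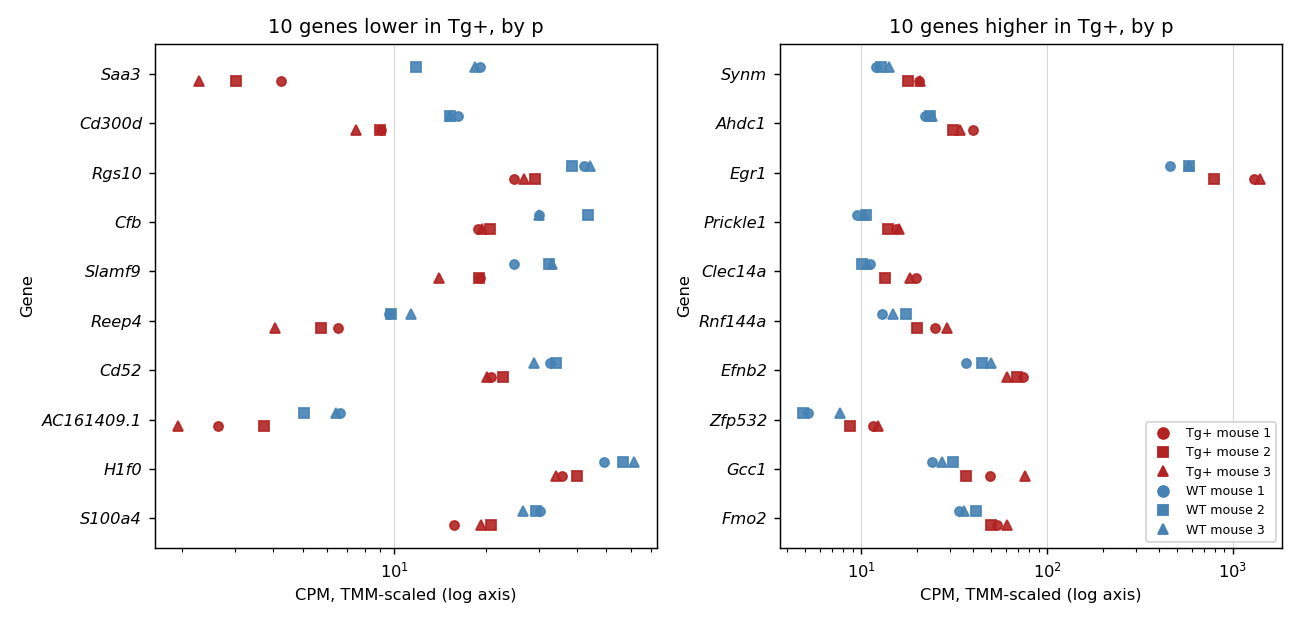
TMM-scaled CPM (log axis) of the 10 genes of lowest p in each direction, 1 point per mouse, red for Tg+ and blue for WT, with the marker shape giving the mouse number. The genotypes do not overlap for any of the 20 genes, because the rule required it, and the gap is widest for Saa3, where Tg+ reaches 4.26 and WT begins at 11.8.

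Macrophage and monocyte markers stood lower in Tg+ as a list. All 18 had a log2 fold change below 0 (48.7% of all genes tested did), with a median of -0.75 against 0.01 for all genes. In 11 of the 18 every Tg+ library lay below every WT library, beside 7.58% of all genes, and 0 of the 18 passed the edgeR test, with 7 at an unadjusted p under 0.05. Marco and Cd5l were farthest, at -2.71 and -2.62, and the other 16 lay between -0.24 for Lyve1 and -0.90 for Ccr2, the receptor gene of recruited monocytes. Folr2, a folate receptor gene of resident macrophages, was at 141, 174 and 81.0 CPM in Tg+ and at 295, 212 and 223 CPM in WT (-0.88, SE 0.30). Lyz2 was at 1208, 1756 and 1022 against 2469, 2107 and 2018 CPM (-0.73, SE 0.30). Tg+ mouse 3 was lowest for 17 of the 18 markers, all but Lyve1.

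The summed level of the 18 macrophage markers was 5324, 6889 and 3171 CPM in Tg+ and 9404, 7619 and 8128 CPM in WT, without overlap. Without Tg+ mouse 3 the list's median log2 fold change was -0.44, without WT mouse 1 it was -0.65, and without both -0.34. The 18 markers stayed below 0 in each of these fits, and 11 of 18 did not overlap in each subset of libraries, where 12.5%, 10.6% and 18.2% of all genes lay lower in every Tg+ library. Genes without overlap in all 6 libraries stay so in any subset. The count of 11 could not fall, so it does not test the dependence on single libraries. With the code letter as a covariate the median was -0.69. Saa3, Cd300d, Slamf9, Cd52 and Rgs10 had the same direction as this list, but the rule that named them required every Tg+ library to be lower. Alox15 was named after its values were seen, and Marco and Cd5l are members of the list. The shared direction is therefore not a separate result. The part of the macrophage level in the values of these genes was not tested.

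**Figure D3:**
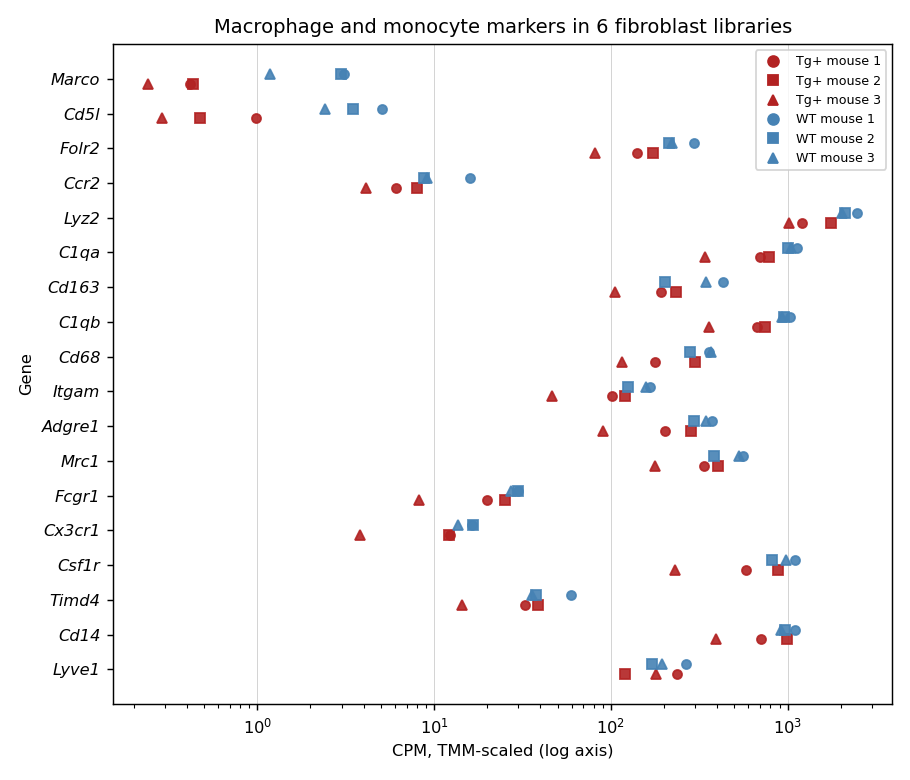
TMM-scaled CPM (log axis) of the 18 macrophage and monocyte markers, ordered by p, 1 point per mouse, red for Tg+ and blue for WT. Red points lie to the left of blue points without overlap in 11 of the 18 genes, and Tg+ mouse 3 (red triangle) is the lowest library for every gene but Lyve1.

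Other blood cell lists also had medians below 0, which moved with single libraries. The 7 genes of MHC class II antigen presentation were all below 0 (median -0.51), and 2 of the 7 were lower in every Tg+ library, beside 7.58% of all genes. The one of lowest p, H2-DMa, which loads peptides, was at 43.2, 50.4 and 21.4 CPM in Tg+ and at 62.5, 64.8 and 57.3 CPM in WT (-0.68, SE 0.30). Without Tg+ mouse 3 the median of the class II list was -0.17, and without WT mouse 1 as well it was -0.09. Of 8 T and NK cell genes 7 were below 0 (median -0.99, -0.46 without WT mouse 1 and -0.12 without Tg+ mouse 3 as well), led by Cd4 (5.69, 3.63 and 2.86 against 8.17, 5.23 and 6.73 CPM), with the highest Tg+ library above the lowest WT library. Il7r, the interleukin 7 receptor gene, was at 11.3, 19.1 and 3.54 against 30.4, 19.9 and 21.9 CPM. Of 8 neutrophil and mast cell genes 6 were below 0 (median -0.45), and this median was -0.08 without Tg+ mouse 3, -0.22 without WT mouse 1 and 0.03 without both. The mast cell protease gene Tpsb2 was at 1.43, 4.41 and 1.02 against 10.8, 4.14 and 5.70 CPM. The 6 red cell genes were all below 0 (median -0.39), but their summed level ran from 88.4 to 6844 CPM in Tg+ and from 1505 to 7630 CPM in WT, and Tg+ mouse 3 held the lowest. Without that mouse the red cell median was 0.20 with 5 of 6 above 0, and without WT mouse 1 as well it was 0.43. The 0 calls hold for each of these lists in edgeR.

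Endothelial markers stood higher in Tg+. All 12 had a log2 fold change above 0 (51.3% of all genes did), with a median of 0.48 that ranged from 0.41 to 0.62 when each library was left out and was 0.25 without both Tg+ mouse 3 and WT mouse 1 (0.57 with the code letter as a covariate). In 3 of the 12 every Tg+ library lay above every WT library, beside 5.51% of all genes. That count was 3 without WT mouse 1, 4 without Tg+ mouse 3 and 5 without both, and it could not fall when libraries were left out. Of all genes, 9.16%, 9.35% and 15.3% lay higher in every Tg+ library of these subsets. The markers above 0 were 11 of 12 without WT mouse 1, 12 without Tg+ mouse 3 and 10 without both. Without both, 1 of the 12 lay lower in every Tg+ library, beside 18.2% of all genes. Egfl7, which encodes a secreted vascular protein, was at 161, 116 and 144 CPM in Tg+ and at 80.9, 110 and 107 CPM in WT (0.50, SE 0.21). Kdr, the main VEGF receptor gene, was at 231, 183 and 337 against 118, 177 and 178 CPM (0.66, SE 0.29). Tek, the angiopoietin receptor gene, was at 85.1, 70.5 and 72.8 against 48.7, 62.9 and 63.3 CPM (0.39, SE 0.17). WT mouse 1 was the lowest library for these 3, and their margin to Tg+ mouse 2 was narrow in the other WT libraries. The summed endothelial level was 4004, 2974 and 4272 CPM in Tg+ and 1909, 2758 and 2756 CPM in WT. Clec14a and Efnb2 were higher in every Tg+ library, as that sum was, but the rule that named them required this. Their shared direction is therefore not a separate result. Within a genotype they followed the sum in part. WT mouse 1 had the lowest sum and the lowest Efnb2 of the WT libraries, but the highest Clec14a. Tg+ mouse 2 had the lowest sum and the lowest Clec14a of the Tg+ libraries. Tg+ mouse 3 had the highest sum but the lowest Efnb2 of the Tg+ libraries. The part of the endothelial level in the values of Clec14a and Efnb2 was not tested.

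Mesothelial and epicardial markers had the lowest median of the marker lists, -1.52 over 8 genes, 6 of them below 0. Msln, which encodes mesothelin, was at 7.20, 6.40 and 0.581 CPM in Tg+ and at 30.7, 19.6 and 6.01 CPM in WT (-1.98, SE 0.83). Upk3b was at 15.9, 13.9 and 1.26 against 56.9, 38.3 and 14.3 CPM (-1.81, SE 0.81), and Krt19 at 3.24, 1.82 and 0.630 against 9.13, 5.89 and 1.59 CPM (-1.54, SE 0.71). WT mouse 1 was highest and Tg+ mouse 3 lowest for all 3, and the genotypes overlapped. Wt1, an epicardial gene of the list, went the other way. As nuclear-only CPM per exon kilobase it was at 19.6, 23.6 and 26.1 in Tg+ and at 9.70, 18.0 and 21.9 in WT, with overlap. The median of the list was -0.96 without WT mouse 1, -1.05 without Tg+ mouse 3 and -0.48 without both. Of the 10 smooth muscle and pericyte genes 7 were above 0 (median 0.08), but without Tg+ mouse 3 the median was -0.11 with 3 above 0, and without WT mouse 1 as well it was -0.31 with 1. The pericyte gene Rgs5 was at 78.4, 109 and 843 CPM in Tg+ against 70.6, 149 and 128 CPM in WT, so Tg+ mouse 3 alone stood apart. The 14 cardiomyocyte genes had a median of -0.35, which was 0.09 without WT mouse 1.

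**Figure D4:**
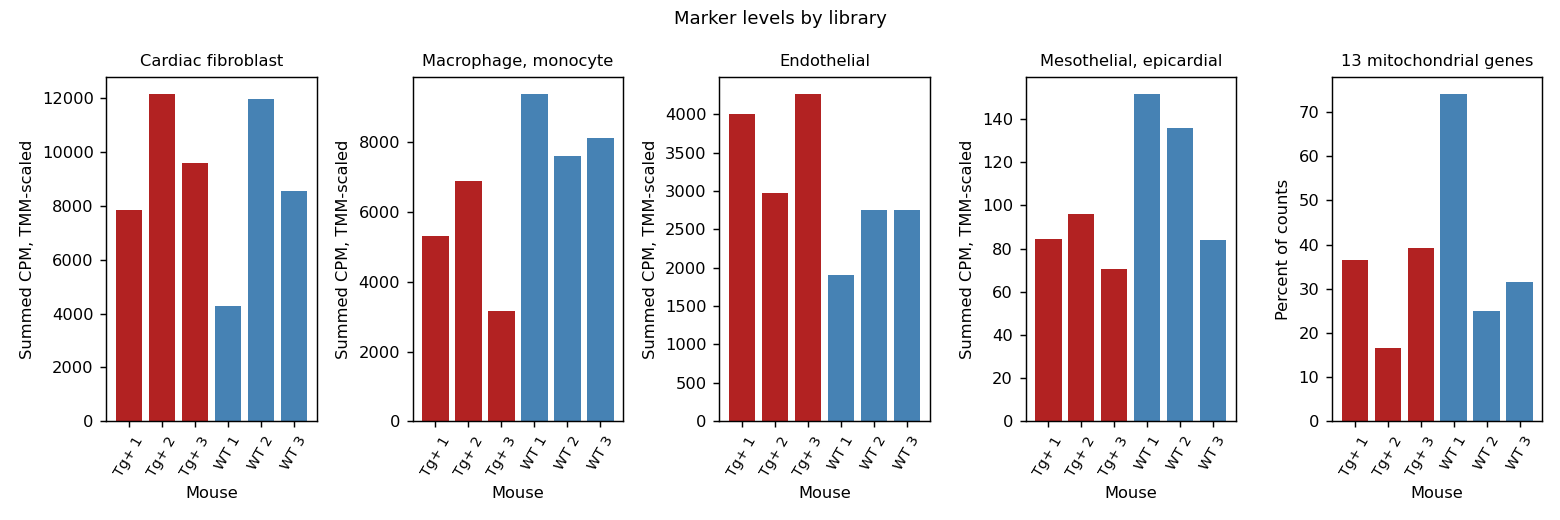
Bars give, for each of the 6 mice, the summed TMM-scaled CPM of 4 marker lists and the percent of counts in the 13 mitochondrial genes, red for Tg+ and blue for WT. Macrophage levels do not overlap (at most 6889 in Tg+, at least 7619 in WT), nor do endothelial levels (at least 2974 in Tg+, at most 2758 in WT), while fibroblast levels overlap and are lowest in WT mouse 1, whose mitochondrial percent is the highest at 74.2.

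The fibroblast list itself did not separate the genotypes. Of 20 markers 18 were above 0 (median 0.35), but 12 of 20 were above 0 with a median of 0.06 once WT mouse 1 was left out. The summed level was 7864, 12174 and 9608 CPM in Tg+ and 4267, 11952 and 8551 CPM in WT. In every Tg+ library 1 of the 20 was higher (5%, beside 5.51% of all genes) and 1 lower (5%, beside 7.58%), so neither share stood out. The higher was Ddr2, the collagen receptor gene (89.0, 125 and 105 against 29.1, 86.9 and 84.4 CPM). The lower was Vim, the vimentin gene (1199, 1280 and 934 against 1362, 1437 and 1663 CPM). Vimentin is also made by macrophages and endothelial cells.

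Matrix genes showed no difference that passed. Of 19 collagen genes 17 were above 0 (median 0.21), and the median was -0.07 without WT mouse 1. Col5a3 was at 68.6, 67.3 and 126 CPM in Tg+ and at 44.4, 76.2 and 51.9 CPM in WT (0.60, SE 0.31), and Col6a3 at 103, 90.2 and 159 against 43.3, 104 and 78.9 CPM (0.64, SE 0.35). For both, Tg+ mouse 3 was the highest and WT mouse 1 the lowest library. Of 23 glycoprotein and proteoglycan genes 16 were above 0 (median 0.16, and -0.14 without WT mouse 1). Spp1, which encodes osteopontin, a product of activated macrophages and fibroblasts, went the other way: 5.54, 14.4 and 8.48 CPM in Tg+ against 17.6, 24.3 and 20.2 CPM in WT, without overlap (-1.13, SE 0.33). It was the 1 gene of the 23 that was lower in every Tg+ library (4.35%, beside 7.58% of all genes). Fmod, the fibromodulin gene, was at 7.24, 8.69 and 3.25 against 18.6, 14.9 and 7.39 CPM (-1.09, SE 0.43). Fbn1, the fibrillin gene of elastic microfibrils, was at 151, 177 and 211 against 77.9, 151 and 156 CPM (0.49, SE 0.29).

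Matrix proteases and their inhibitors had a median of 0.31 over 17 genes, 11 above 0, which was 0.08 without WT mouse 1. Timp3, a metalloprotease inhibitor gene, was at 426, 393 and 661 CPM in Tg+ and at 202, 395 and 350 CPM in WT (0.64, SE 0.33). In TGF-beta signalling 8 of 16 genes were above 0 (median 0.03). Of these 16, 1 was lower in every Tg+ library (6.25%, beside 7.58% of all genes) and 1 higher (6.25%, beside 5.51%), so neither share stood out. The lower was Tgfbi, a secreted target of that pathway (223, 280 and 115 against 364, 291 and 324 CPM, -0.66, SE 0.33). The higher was the ligand gene Bmp4 (12.7, 13.3 and 16.6 against 11.0, 11.6 and 11.2 CPM, 0.33, SE 0.17). Of 8 myofibroblast genes 2 were above 0 (median -0.13). Secreted Wnt inhibitors had a median of 0.34 over 9 genes, 7 above 0 (0.16 without WT mouse 1), with Sfrp2 at 10.1, 10.6 and 6.88 against 3.84, 9.52 and 4.67 CPM. None of the genes of these lists passed the edgeR test.

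The chaperone network around BAG3 had a median near 0: 10 of 23 genes were above 0 and that median was -0.05. Its partner genes Hspa8 (-0.09, SE 0.23), Hspb8 (0.14, SE 0.19) and Stub1 (-0.05, SE 0.15) had fold changes smaller than their errors. In every Tg+ library 2 of the 23 genes were lower (8.7%, beside 7.58% of all genes) and 2 higher (8.7%, beside 5.51%), so neither count stood out. The lower were the stress-inducible HSP70 genes. Hspa1b was at 290, 239 and 193 CPM in Tg+ and at 606, 337 and 438 CPM in WT (-0.93, SE 0.28), and Hspa1a at 312, 239 and 222 against 477, 337 and 475 CPM (-0.74, SE 0.24). These 2 genes are near-identical copies, so how their counts divide is uncertain. Their co-chaperone gene Dnajb1 lay the other way (109, 76.6 and 190 against 67.4, 87.5 and 76.2 CPM, 0.70, SE 0.33), with Tg+ mouse 3 highest and an overlap. Bag5, another BAG family gene, was among the higher, at 27.9, 30.9 and 33.5 against 18.4, 27.0 and 25.2 CPM (0.39, SE 0.19).

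Autophagy and lysosome genes had a median of -0.11, with 5 of 22 above 0 and 5 lower in every Tg+ library, beside 7.58% of all genes. The lysosomal protease gene Ctsd was at 388, 486 and 280 CPM in Tg+ and at 600, 615 and 570 CPM in WT (-0.63, SE 0.25), and Ctsb, another, at 1325, 1872 and 883 against 2310, 1926 and 2136 CPM (-0.64, SE 0.33). These proteases are abundant in macrophages, and the part of the macrophage level given above in their values was not tested. The autophagy receptor gene Sqstm1 overlapped (2005, 3244 and 1255 against 2567, 3006 and 2892 CPM). Of 21 proteasome genes 3 were above 0 (median -0.18), and 3 were lower in every Tg+ library (14.3%, beside 7.58% of all genes). The gene of lowest p was the ATPase subunit gene Psmc4 (29.7 ± 2.14 against 38.8 ± 1.86 CPM, SD, n = 3 each, no overlap, log2 fold change -0.39, SE 0.14).

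BAG3 also takes part in tension sensing through actin and YAP. Of 14 genes of that list 9 were above 0 (median 0.23), 4 higher in every Tg+ library (5.51% of all genes) and 2 lower (7.58%). Amotl2, an angiomotin gene and YAP target, was at 101, 70.4 and 72.5 CPM in Tg+ and between 50.7 and 55.8 CPM in WT (0.62, SE 0.19). Yap1 itself was at 83.3, 82.9 and 110 against 50.1, 74.9 and 65.2 CPM (0.54, SE 0.21). Ankrd1, another YAP target, was lower (12.0, 8.52 and 12.1 against 22.9, 13.1 and 13.7 CPM, -0.61, SE 0.27), so the targets did not share a direction.

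Immediate early genes, which are induced soon after a cell is stimulated, were above 0 in 17 of 18 cases (51.3% of all genes were), with a median of 0.26. Without WT mouse 1 the median was 0.13 with 12 above 0, and without Tg+ mouse 3 as well it was 0.22 with 14. In every Tg+ library 2 of the 18 were higher (11.1%, beside 5.51% of all genes) and 1 lower (5.56%, beside 7.58%). Beside Egr1, Ier2 was at 291, 256 and 264 CPM in Tg+ and at 133, 218 and 189 CPM in WT (0.58, SE 0.23), and Jun at 749, 534 and 688 against 445, 457 and 561 CPM (0.43, SE 0.23). The groups did not overlap for Ier2 and did for Jun.

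Inflammatory lists were mixed. Of 24 cytokine and chemokine genes 16 were above 0 (median 0.10), but without Tg+ mouse 3 the median was -0.27 with 8 above 0, and without WT mouse 1 as well it was -0.12 with 6. In every Tg+ library 1 of the 24 was lower (4.17%, beside 7.58% of all genes) and 1 higher (4.17%, beside 5.51%), so neither share stood out. The lower was Ccl8, a monocyte chemokine gene (9.35, 16.7 and 13.5 against 19.7, 34.6 and 21.9 CPM, -0.95, SE 0.29). The higher was the stromal chemokine gene Cxcl12 (148, 158 and 332 against 66.2, 142 and 127 CPM, 0.93, SE 0.40). In the complement and acute phase list, 6 of 11 were above 0 (median 0.06), and without WT mouse 1 the median was -0.16 with 2 above 0. After Saa3 and Cfb the third was C4b (255, 335 and 100 against 437, 392 and 359 CPM, -0.78, SE 0.41). Of 13 inflammasome and receptor genes 3 were above 0 (median -0.32, and -0.16 without WT mouse 1). After Nlrp1b came Casp1, the protease that matures interleukin 1 (12.6, 17.1 and 15.4 against 24.8, 19.9 and 23.6 CPM, -0.60, SE 0.18), and Tlr2, a receptor for bacterial lipoproteins, overlapped (413, 631 and 288 against 816, 597 and 643 CPM). Of 20 interferon genes 7 were above 0 (median -0.05), with 2 above 0 without Tg+ mouse 3 (median -0.22) and 11 without WT mouse 1 (median 0.02).

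Cell cycle genes were below 0 in 17 of 22 cases (median -0.25), with 6 lower in every Tg+ library, beside 7.58% of all genes. Without Tg+ mouse 3 the median was -0.53 and 9 of 22 were lower in every Tg+ library, beside 12.5% of all genes. The mitotic genes Ccnb2 (2.30, 2.64 and 2.71 CPM in Tg+ against 3.84, 3.79 and 4.98 CPM in WT, -0.72, SE 0.23) and Top2a (5.77, 4.58 and 5.72 against 7.39, 7.61 and 12.5 CPM, -0.77, SE 0.26) did not overlap. The mitotic kinase gene Plk1 was at 0.603, 0.778 and 0.484 against 0.998, 1.33 and 2.21 CPM (-1.26, SE 0.44). Cytosolic ribosomal protein genes were above 0 in 26 of 28 cases (median 0.14, and -0.03 without Tg+ mouse 3), with Rpl5, which has processed copies in the genome, farthest (10.1, 8.13 and 16.5 against 4.77, 6.87 and 4.98 CPM, 1.06, SE 0.30).

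Mitochondrial transcripts did not differ beyond the spread between mice. The 13 mitochondrial genes held 30.8% ± 12.3 of the counts in Tg+ (SD, n = 3) and 43.6% ± 26.7 in WT (SD, n = 3), a difference of -12.8 percentage points (two-sided exact permutation p = 0.6, with 0.1 the smallest p that 3 against 3 allows). Without WT mouse 1 the difference was 2.54 percentage points. The 13 genes had a median log2 fold change of -1.45 with all libraries and 0.17 without WT mouse 1. The farthest, mt-Atp8, was at 1233, 418 and 529 CPM in Tg+ and at 7959, 712 and 1033 CPM in WT, where WT mouse 1 stood apart. Nuclear genes of oxidative phosphorylation had a median of -0.11, with 5 of 38 above 0 and 5 lower in every Tg+ library, beside 7.58% of all genes. Without Tg+ mouse 3 the median was -0.24 with 0 above 0, and 19 of 38 were lower in every Tg+ library, beside 12.5% of all genes. Without WT mouse 1 the median was -0.04 with 13 above 0. Of 15 fatty acid oxidation genes 5 were above 0 (median -0.07), and 9 without WT mouse 1. In every Tg+ library 1 was higher (6.67%, beside 5.51% of all genes) and 1 lower (6.67%, beside 7.58%). The higher was Pdk4, which restrains glucose oxidation, at 14.4, 16.3 and 15.9 against 12.5, 11.1 and 7.96 CPM (0.56, SE 0.20).

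**Figure D5:**
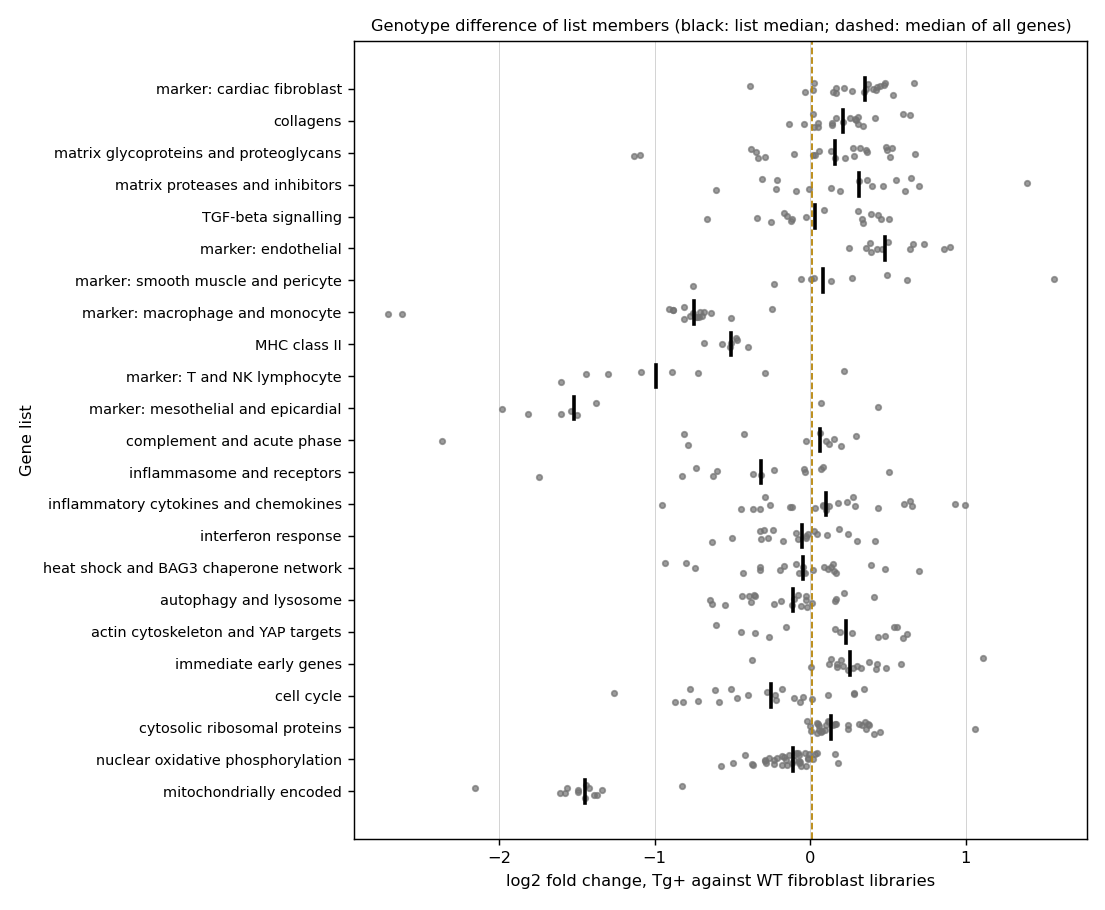
Log2 fold change (Tg+ against WT fibroblast libraries) of each tested member of 23 gene lists, grey points, with the list median as a black bar and the median of all genes tested, 0.01, as a dashed line. The macrophage list (median -0.75), the mesothelial list (-1.52), the T and NK list (-0.99) and the mitochondrially encoded genes (-1.45) lie to the left, and the endothelial list (0.48) to the right.

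Whether the genotype difference in fibroblasts differed from that in cardiomyocytes of the same mice was tested as an interaction, with the mouse as a block. Of 14350 genes edgeR called 0 (0%; 129 at unadjusted p under 0.05, lowest adjusted p = 1), and limma voom called 0 (200 at unadjusted p under 0.05). Fewer genes lay under 0.05 than a well-calibrated test would give on average without any difference, so these fits were conservative. Their 0 calls do not show that the genotype difference was alike in both cell types. The 5 genes of lowest p were Dhx35, Zbed6, Angptl4, Cul7 and Tbk1. Dhx35, an RNA helicase gene, had 3.80, 4.58 and 1.09 CPM in Tg+ fibroblasts and 4.13, 1.82 and 3.95 in WT fibroblasts, on a scale set over all 12 columns, against 4.85, 6.83 and 7.51 in Tg+ cardiomyocytes and 0, 0.237 and 0.107 in WT cardiomyocytes (interaction -5.80, SE 1.13). The low Dhx35 values were thus in WT cardiomyocytes and not in fibroblasts. Angptl4, a lipoprotein lipase inhibitor gene, had an interaction of -2.01 (SE 0.54), and Tbk1, an innate immune kinase gene, of -1.48 (SE 0.41). Zbed6 had 1.71 (SE 0.45) and Cul7, a cullin gene, 2.00 (SE 0.54). The interaction of Saa3 was -0.53 with an SE of 1.13, since cardiomyocyte libraries held few Saa3 counts, and that of Bag3 was 0.14 (SE 0.72).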

How the data were processed

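Messenger RNA of isolated mouse cardiac cells was sequenced, and the 6 fibroblast libraries (3 Tg+, 3 WT) were compared, with the mouse as the replicate. The authors deposited estimated counts (expected counts) for each gene, and 58.8% to 63.3% of the values in these libraries were fractional. Tools listed in the submitters' processing notes are kallisto 0.44.0, R 3.4.4 and DESeq2 1.18.1, with the build GRCm38.p6. The sources used here do not give the annotation, how transcripts were summed to genes or the use of strand. A second, normalized table was not used. All columns could be mapped (0 unmapped).

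Counts were rounded and tested with edgeR 4.0.16 in R 4.3.3 (filterByExpr, TMM scaling, robust glmQLFit, glmQLFTest, two-sided), with Benjamini-Hochberg adjusted p < 0.05 over all genes tested. Mitochondrial counts were part of the library sizes unless said otherwise. The 3 counts floor is 0.111 to 0.154 CPM in these libraries and covers counting error only. The interaction fit added the cardiomyocyte counts, summed per mouse, with the mouse as block. Limma 3.58.1 (voom), DESeq2 1.42.0, other scalings and filters, the code letter as a covariate and leaving out libraries were alternatives. Leaving out WT mouse 1 and Tg+ mouse 3 together, and recounting groups without overlap, were added after the data were seen. The fits were tested on simulated data.

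Members of the comparison and the 43 gene lists were chosen with earlier results of these data known. Named by rule were Bag3, the cell type markers, up to 12 genes per direction past the threshold or, where fewer than 10 passed, the 10 of lowest p without overlap and averaging 5 CPM or more in the higher genotype (without predicted and sex-linked genes), up to 3 members of lowest p per list and 5 interaction genes. Not every gene so named is reported. Genes called by DESeq2 or by library size alone, Alox15, the largest and smallest members of a list, BAG3 partner genes, Sqstm1, Rgs5, Lyz2, Jun and Ddx3y were named after their values were seen. Positions and exon lengths came from GENCODE M21 on GRCm38 (94.9% of genes tested matched), promoters from RefSeq on GRCm38.p6.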

Additional observations from a re-analysis of the deposited data

How the results depend on the processing

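The count of 0 genes called by genotype held in edgeR with DESeq2 size factors, without mitochondrial genes, without a filter, with a filter of 1 CPM in 3 libraries, with non-robust dispersion, with the code letter as covariate, in limma voom, without each library in turn and without both WT mouse 1 and Tg+ mouse 3. Scaling by library size alone gave 2 called, 2 of them higher (Nanp and Bsx), and moved the median log2 fold change of all genes to 0.36. Bsx rested on Tg+ mouse 3, at 11.6 CPM against 0.257 to 0.754 in the others. The DESeq2 test gave 5 called, 1 higher and 4 lower. The interaction stayed at 0 under each alternative run. Without each library in turn, unadjusted p was under 0.05 for 364 (without WT mouse 1) to 1610 genes (without Tg+ mouse 2), against 690.

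The difference in mitochondrial share ran from -22.0 to 2.54 percentage points when each library was left out, and it turned sign without WT mouse 1. The log2 fold changes of genes whose sign turned ran, over the fits without 1 library, from -0.20 to 0.43 for Bag3, -0.30 to 0.77 for Tcf21, -0.31 to 0.32 for Col1a1, -0.29 to 2.04 for Rgs5, -0.0029 to 0.28 for Hspb8 and -0.13 to 0.038 for Stub1. Bag3 turned without Tg+ mouse 2 or WT mouse 1, Tcf21 without the same mice, Col1a1 without either of these or Tg+ mouse 3, Rgs5 and Stub1 without Tg+ mouse 3 and Hspb8 without Tg+ mouse 1. Without both WT mouse 1 and Tg+ mouse 3, the value was -0.20 for Tcf21, -0.48 for Col1a1, -0.55 for Rgs5 and 0.072 for Stub1. With library size alone, it was 0.18 for Lyve1, 0.19 for Hspa8 and 0.31 for Stub1. The cause was not tested. No paired analysis was possible because each mouse gave 1 fibroblast library, all labelled rep1, so the number pairs no mice. The codes of Tg+ mouse 1 and WT mouse 1 begin with the same characters, whose meaning the labels do not give, and 1 shared code leaves no block to fit.

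Depth limits genes such as Marco, Cd5l and Nanp, whose Tg+ or WT libraries held few counts. With 3 mice per genotype and 1 library each, animal and preparation cannot be told apart, and WT mouse 1 differs from the others in depth and mitochondrial share.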

Other observations

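Lists not described above gave 0 genes past the edgeR test, and their members were described by the sign of the log2 fold change (Tg+ against WT; median of all genes 0.01). Genes of oxidative stress defence, such as those of the NRF2 pathway, were above 0 in 2 of 15 cases, with a median of -0.27 that was -0.06 without Tg+ mouse 3. Glycolysis genes were above 0 in 5 of 18 cases (median -0.13), and p53 target and apoptosis genes in 7 of 16 (median -0.08). Unfolded protein and integrated stress response genes were above 0 in 9 of 17 cases (median 0.05), mitochondrial dynamics and mitophagy genes in 10 of 14 (median 0.07, and -0.05 without Tg+ mouse 3) and circadian clock genes in 10 of 16 (median 0.03, and -0.16 without WT mouse 1). Hox and other positional genes were above 0 in 11 of 14 cases (median 0.19), and Wnt targets and ligands in 7 of 11 (median 0.11). B cell markers had a median of -0.23 over 6 genes, which was 0.27 without WT mouse 1. Schwann cell (2 tested genes, median -0.04), adipocyte (1 gene, 0.55) and airway and alveolar markers (1 gene, 0.06) were mostly too low to test. The sex-linked list had 4 of 8 tested genes above 0 (median -0.31).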
